A study of Mus musculus with 4 samples.

Results

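EN11 is a subtype of glutamatergic neurons in the developing mouse superior colliculus, recognised in these data by high transcript levels of the nuclear factor I genes Nfib, Nfia and Nfix. Its members are the nuclei that carry the label EN11 in the authors' subtype annotation, 163 of 9724 nuclei in all and of 4093 excitatory neurons. Nuclei came from the superior colliculus of C57BL/6J mice of 4 ages, the embryonic day 19 (E19) and, after birth, day 4 (P4), day 8 (P8) and day 21 (P21). No genotype or treatment other than age distinguished the groups, and each stage was 1 library of tissue pooled from several animals, of a number the sources used here do not state. From E19 to P21, EN11 held 84, 52, 18 and 9 nuclei. It was compared with the 12 other excitatory subtypes, called the other excitatory neurons below, which held 1254, 1154, 849 and 673 nuclei at the same stages.

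The superior colliculus is a layered midbrain structure that turns visual, auditory and touch signals into orienting movements. Its excitatory neurons load glutamate into vesicles with the transporter encoded by Slc17a6. Nuclear factor I (NFI) proteins are DNA-binding transcription factors, encoded in mammals by Nfia, Nfib, Nfic and Nfix, that act in the maturation of neurons and in the formation of glia in several brain regions.

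With 1 library a stage there was no replicate, so no test between stages or subtypes was made. Intervals in the text are 95% intervals for counting error only. The sources used here do not say how the authors drew the borders of the subtypes; if the labels rest on these same transcripts, the genes that set EN11 apart describe the label and are not independent evidence for it. Levels are in CPM, the unique molecular identifiers (UMIs) of a gene summed over the nuclei of a group in 1 library and scaled to a total of 1000000. From the youngest to the oldest library EN11 totalled 687486, 513199, 235967 and 388857 UMIs. The median per nucleus was 7504.5 UMIs at E19 and 9052.5 at P4, against 8145.5 and 11829 in the other excitatory neurons. A cell barcode was shared between libraries by 18 nuclei of the series, 1 of them in EN11. The deepest P21 nucleus of EN11 held 244143 UMIs, the most of all 9724 nuclei, and supplied 62.8% of the EN11 UMIs at that stage. It carried 109 UMIs of the inhibitory genes Gad1, Gad2 and Slc32a1, against 2 in the other 8 P21 nuclei, so P21 values are given with and without it.

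The excitatory label was checked first against its marker. Slc17a6 (chromosome 7, 51622006 to 51671119, plus strand, mm10) stood at 307, 275, 182 and 121 CPM in EN11 from E19 to P21 (intervals 267 to 351, 231 to 324, 132 to 245 and 88.8 to 161), or 180 at P21 without the deepest nucleus. The other excitatory neurons stood at 284, 240, 182 and 177 CPM, and inhibitory neurons at 46.3, 38.8, 19.8 and 8.32. EN11 was thus level with its class: a Slc17a6 UMI was found in 84.5% of EN11 nuclei and 84.5% of the others at E19. The other vesicular glutamate transporter genes were near background, with 0 UMIs of Slc17a7 and 7 of Slc17a8 at E19.

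Markers of other cell types were low in EN11. The 9 astrocyte markers summed to 204 CPM in EN11 at E19 and 203 at P4, against 170 and 161 in the other excitatory neurons and 2443 and 2592 in astrocytes. At P8 they summed to 199 CPM against 134 in the other excitatory neurons, with Slc1a3, Aldh1l1, Gja1 and Fgfr3 at 0 in EN11. The P21 sum was 548 CPM, or 173 without the deepest nucleus, against 84.3 in the other excitatory neurons and 6803 in astrocytes. With the deepest nucleus included, 8 of the 9 were higher in EN11 than in the other excitatory neurons at P21. This count was not made without that nucleus. The 12 oligodendrocyte-lineage markers summed to 106, 76.0 and 114 CPM at the first 3 stages, with Sox10 and Mobp at 0 at each of them. The other excitatory neurons had 77.9, 111 and 69.3 CPM at these stages. At P21 the oligodendrocyte-lineage markers summed to 2271 CPM, and to 325 without the deepest nucleus, against 240 in the other excitatory neurons. The inhibitory transmitter genes were somewhat higher than in the class, at 234 against 141 CPM at E19 and 210 against 119 at P4, where inhibitory neurons had 1128 and 1003. Gad2, which makes the transmitter GABA, stood at 52.4 CPM (36.7 to 72.5) in EN11 and 22.0 in the others at E19. Nuclei with at least 2 UMIs of Gad1, Gad2 and Slc32a1 together made up 14.3% of EN11 at E19 and 11.5% at P4, against 6.70% and 9.27% of the others; without these nuclei all 25 of the genes named below as higher remained higher at both stages.

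The first comparison asked how large EN11 was at each stage. Its share of excitatory neurons was 6.28% in the E19 library (5.04 to 7.71), 4.31% in that of P4 (3.24 to 5.62), then 2.08% (1.23 to 3.26) and 1.32% (0.605 to 2.49) in those of P8 and P21. The E19 interval lay above those of P8 and P21, while the intervals of neighbouring stages overlapped. EN11 ranked as the 4th largest of 13 excitatory subtypes at E19, the 8th at P4 and the 12th at P8 and P21. It was the 1 subtype of the 13 whose share was lower at each stage than at the stage before, though EN1 and EN2 were also below their E19 shares at all later stages. Its P21 share was 0.210 of its E19 share, the largest relative drop after that of EN7. Of all nuclei, EN11 made up 3.25%, 2.18%, 0.719% and 0.400%. With EN7, a subtype that came mostly from the P4 library, left out of the excitatory neurons, the P4 share was 5.12%. Fewer EN11 neurons in the tissue, fewer captured and fewer labelled as EN11 cannot be told apart here.

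The next comparison asked which genes distinguished EN11 from the other excitatory neurons. A gene counted as higher or lower when the log2 ratio, with 5 CPM added to both levels, reached 1 or -1, that is 2-fold, among genes that reached 20 CPM in one group or the other. At E19, 130 of 7696 genes (1.69%) were higher and 84 (1.09%) were lower. At P4, 119 of 7556 genes (1.57%) were higher and 127 (1.68%) were lower. At both stages, 52 of 7141 genes (0.728%) were higher and 42 (0.588%) lower, so EN11 shared most of its transcript levels with its class, with all-gene median log2 ratios of 0.05 at both stages. The genes named below are the 25 with the largest smaller ratio of both stages and the 15 with the lowest, at 100 CPM or more.

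Genes of the NFI family led the list. Nfib (chromosome 4, 82290173 to 82705750, minus strand) stood at 1743, 1095, 1568 and 561 CPM in EN11 from E19 to P21 (intervals 1645 to 1844, 1006 to 1189, 1412 to 1736 and 489 to 640), or 885 at P21 without the deepest nucleus. The other excitatory neurons stood at 52.0, 37.8, 23.5 and 30.0 CPM, so the levels of the groups lay far apart at every stage. The ratio was 33.5-fold (30.3 to 37.1) at E19 and 29.0-fold (25.7 to 32.6) at P4.

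Nfia (chromosome 4, 97772734 to 98118874, plus strand) stood at 602, 417, 441 and 306 CPM in EN11 from E19 to P21 (intervals 546 to 663, 363 to 477, 360 to 534 and 254 to 366), or 173 without the deepest P21 nucleus. In the other excitatory neurons it stood at 28.7, 17.9, 13.4 and 50.4 CPM. The log2 ratio, with 5 CPM added to both levels, was 4.17 at E19 and 4.20 at P4. Intervals of the ratio without the added CPM were 18.1-fold to 24.4-fold at E19 and 19.3-fold to 28.0-fold at P4. Nfix (chromosome 8, 84699876 to 84800344, minus strand) was lower in absolute terms, at 192 CPM (161 to 228), 170 (136 to 209), 225 (168 to 294) and 79.7 (54.2 to 113), or 76.0 without the deepest P21 nucleus. Against 8.67 and 7.09 CPM in the other excitatory neurons its ratio was still 22.2-fold (16.9 to 29.2) and 23.9-fold (17.7 to 32.1). Nfic, the remaining family member, did not follow them: it stood at 37.8 CPM (24.7 to 55.4) in EN11 and 27.5 in the others at E19, and at 42.9 (26.9 to 64.9) and 32.5 at P4.

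**Figure D1:**
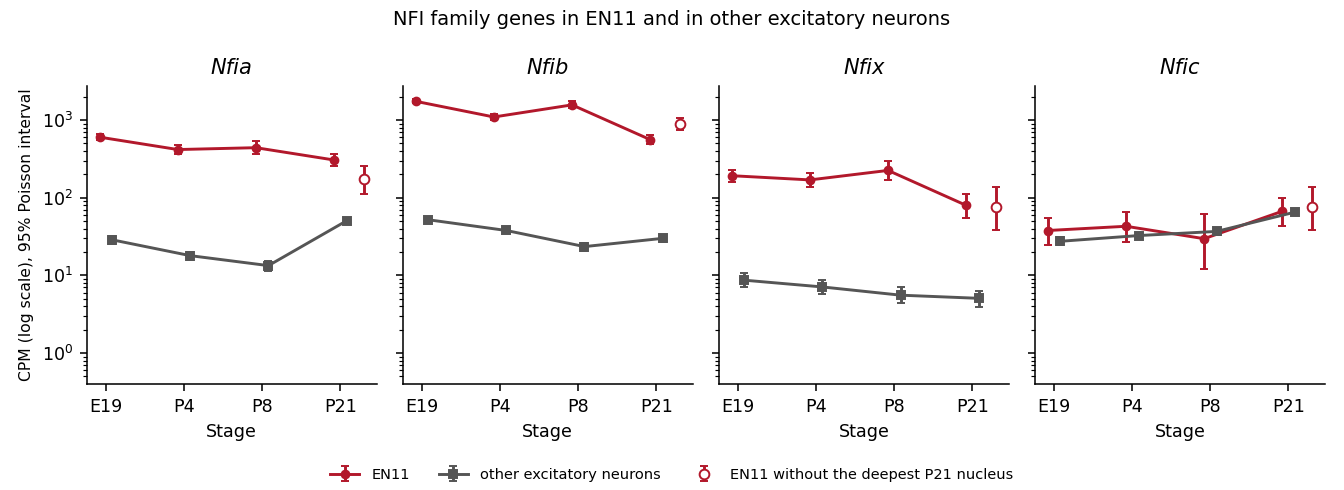
Levels of the 4 NFI family genes (CPM, log scale) in EN11 (red circles) and the other excitatory neurons (grey squares) at each stage, with 95% Poisson intervals; the open circle leaves out the deepest P21 nucleus. Nfia, Nfib and Nfix lie above the other excitatory neurons at all 4 stages, and the Nfic levels lie close together.

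The NFI signal was spread over most EN11 nuclei. At E19 a Nfib UMI was found in 92.9% of EN11 nuclei, Nfia in 70.2% and Nfix in 64.3%, against 22.7%, 15.6% and 6.94% of the other excitatory neurons, which were sequenced more deeply. After thinning every nucleus to 2300 UMIs, with no nucleus left out, the Nfib and Nfia shares were 85.7% and 52.4% against 9.01% and 4.70%. At least 5 UMIs of the 3 genes together were carried by 70 of 84 EN11 nuclei at E19 (83.3%), 37 of 52 at P4 (71.2%), 17 of 18 at P8 (94.4%) and 7 of 9 at P21 (77.8%). In the other excitatory neurons the shares were 2.31%, 3.12%, 2.0% and 9.81%. EN11 thereby supplied 70.7% of all such excitatory nuclei at E19 and 50.7% at P4, but 9.59% at P21.

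At E19 and P4 no other excitatory subtype reached these levels. The nearest for Nfib was EN13, at 468 CPM (368 to 588) at E19 and 232 (168 to 313) at P4, followed by EN10 at 82.2 and 169. For Nfia the nearest were EN1 at E19, at 37.0 CPM, and EN8 at P4, at 34.1. Outside the excitatory class, the inhibitory subtype IN4 had more Nfib than EN11, at 2781 CPM (2609 to 2962) at E19 and 1612 (1497 to 1734) at P4, and IN8 had 1384 and 774. In protoplasmic astrocytes Nfib stood at 2108 and 1776 CPM. At E19 and P4, NFI transcripts therefore marked EN11 within the excitatory neurons and not within the tissue. At P21 most excitatory nuclei with at least 5 NFI UMIs lay outside EN11, as given above.

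Because the 3 NFI genes were high together, the 250 bases before RefSeq transcript starts were searched for the sequence that NFI proteins bind, TTGGC on either strand, and for the full palindromic site, which is TTGGC and its reverse complement GCCAA with 5 bases between them. RefSeq promoter windows on GRCm38.p6 were at hand for Nfia (1 start) and Nfix (4 starts). These starts are not the gene boundaries given above: the Nfia window lies upstream of that interval and the Nfix windows lie within theirs, and the bases before the GENCODE starts were not searched. Windows are shown for the Nfia start and for an Nfix start with a TTGGC motif, which is in capitals.
Nfia, chr4:97581693-97581942, plus strand: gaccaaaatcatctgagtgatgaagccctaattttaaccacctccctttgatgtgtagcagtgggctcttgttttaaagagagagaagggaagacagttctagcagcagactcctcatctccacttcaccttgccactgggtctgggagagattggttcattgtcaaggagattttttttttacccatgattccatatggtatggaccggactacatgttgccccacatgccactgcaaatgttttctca
Nfix, chr8:84775829-84776078, minus strand: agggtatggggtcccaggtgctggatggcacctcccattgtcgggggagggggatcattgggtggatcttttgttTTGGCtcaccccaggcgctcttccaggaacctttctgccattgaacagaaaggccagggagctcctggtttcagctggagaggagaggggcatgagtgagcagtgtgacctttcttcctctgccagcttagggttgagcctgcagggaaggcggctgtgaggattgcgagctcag
The Nfia window held no TTGGC motif. Windows were found for 17 of the 25 genes higher in EN11, and 9 of their 27 windows (33.3%) held the motif. The share was 8 of 19 (42.1%) for the 12 lower genes with a window and 41.5% of all 32851 windows. The palindrome was in 0 windows of both gene sets and in 12 of all windows. These shares were not tested, no window was at hand for Nfib, and windows of the same gene, such as the 4 of Nfix, were counted separately. A motif this short, held by 41.5% of all windows, can hardly tell gene sets apart. The shares therefore say nothing of NFI binding, here or elsewhere.

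Otx2os1, a long noncoding RNA gene (chromosome 14, 48668708 to 48870683, plus strand), was the third leading gene. It stood at 618, 612, 1814 and 597 CPM in EN11 from E19 to P21 (intervals 561 to 680, 546 to 683, 1646 to 1994 and 522 to 679), or 504 without the deepest P21 nucleus, against 31.4, 28.9, 22.9 and 16.2 in the other excitatory neurons. The ratio was 19.7-fold (17.1 to 22.8) at E19 and 21.2-fold (18.2 to 24.5) at P4. Otx2, which encodes a homeodomain factor of the forebrain and midbrain and overlaps Otx2os1 on the opposite strand, was also higher, at 50.9 CPM (35.5 to 70.8) against 9.50 at E19 and 39.0 (23.8 to 60.2) against 6.12 at P4. UMIs of this overlapping pair may be shared, since the sources used here do not say whether read strand entered the counting. EN11 was first among excitatory subtypes for both genes, but inhibitory neurons as a class had more Otx2os1, at 1460 CPM at E19 and 1459 at P4, and IN4 had 4884 and 5614.

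Prox1 (chromosome 1, 190118035 to 190170714, minus strand) encodes a homeodomain factor known for neuronal differentiation in the hippocampus and thalamus. It stood at 247, 125, 157 and 56.6 CPM in EN11 from E19 to P21 (intervals 212 to 287, 96.0 to 159, 110 to 216 and 35.5 to 85.7), or 89.8 without the deepest P21 nucleus, against 16.2, 48.0, 8.72 and 5.98 CPM in the other excitatory neurons. At E19 EN11 was the highest of all subtypes profiled, neuronal or not, and EN7 followed at 67.5 CPM (41.8 to 103). At P4 the order was turned, with EN7 at 152 CPM (138 to 167) and overlapping intervals. The ratio was 15.2-fold (12.3 to 18.9) at E19 and 2.60-fold (1.98 to 3.36) at P4. With EN7 left out, the other excitatory neurons stood at 14.7 and 23.3 CPM and the ratio was 16.8-fold (13.4 to 21.03) and 5.36-fold (4.02 to 7.06).

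Several genes for proteins that act on chromatin or DNA were higher too. Chd7, a chromatin remodeller, stood at 361 CPM (317 to 409) and 318 CPM (271 to 370) at the first 2 stages against 30.2 and 39.6, log2 ratios of 3.38 and 2.85. Tcf4, a basic helix-loop-helix factor, stood at 813 and 713 CPM against 178 and 127. EN13 had 975 CPM of it (827 to 1141) at E19, above EN11, and 659 (547 to 787) at P4. Dach1, a nuclear cofactor of the Dachshund family, stood at 777 and 703 CPM against 169 and 147. It was as high in EN10, at 778 (683 to 881) and 722 (649 to 800). In EN13 it stood at 835 (699 to 991) and 589 (483 to 710). Dpf3, a subunit of BAF chromatin remodelling complexes, stood at 353 and 207 CPM against 84.6 and 68.6, and at 240 and 211 in EN13. The zinc finger genes Zfpm2 (502 and 725 CPM), Zfp536 (448 and 179), Zfp521 (480 and 353) and Zbtb20 (618 and 378) were 2.27-fold to 4.67-fold higher at both stages, though at P4 Zfp536 was higher in EN13 (416 CPM), EN10 (351) and EN6 (292) and Zbtb20 was level in EN10 (375). Tead1, a factor of the Hippo pathway, was 2.41-fold and 1.86-fold higher.

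The remaining leading genes encode secreted, membrane and signalling proteins. Thsd4, a secreted protein with thrombospondin domains, stood at 292 CPM at E19 and 283 at P4 against 49.3 and 40.6. Col11a1, a fibrillar collagen chain, stood at 255 and 222 CPM against 61.2 and 80.4 and at 691 CPM (589 to 805) against 82.8 at P8. The cadherin gene Cdh20, the sorting receptor gene Sorcs3, the phospholipase gene Plcb1, the phosphodiesterase gene Pde3a, Chn2, Fstl4 and Sidt1 had ratios between 1.86-fold and 3.16-fold. The noncoding RNA genes Gm3764 and C130071C03Rik completed the 25. Of the 25, 20 reached 2-fold on the log2 scale at E19 and 22 at P4, and EN11 was first of the 13 excitatory subtypes at both stages for 15; Cdh20 and Gm3764 were higher in EN10 at both. With the other subtypes weighted alike, 21 reached 2-fold at E19 and 17 at P4.

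**Figure D2:**
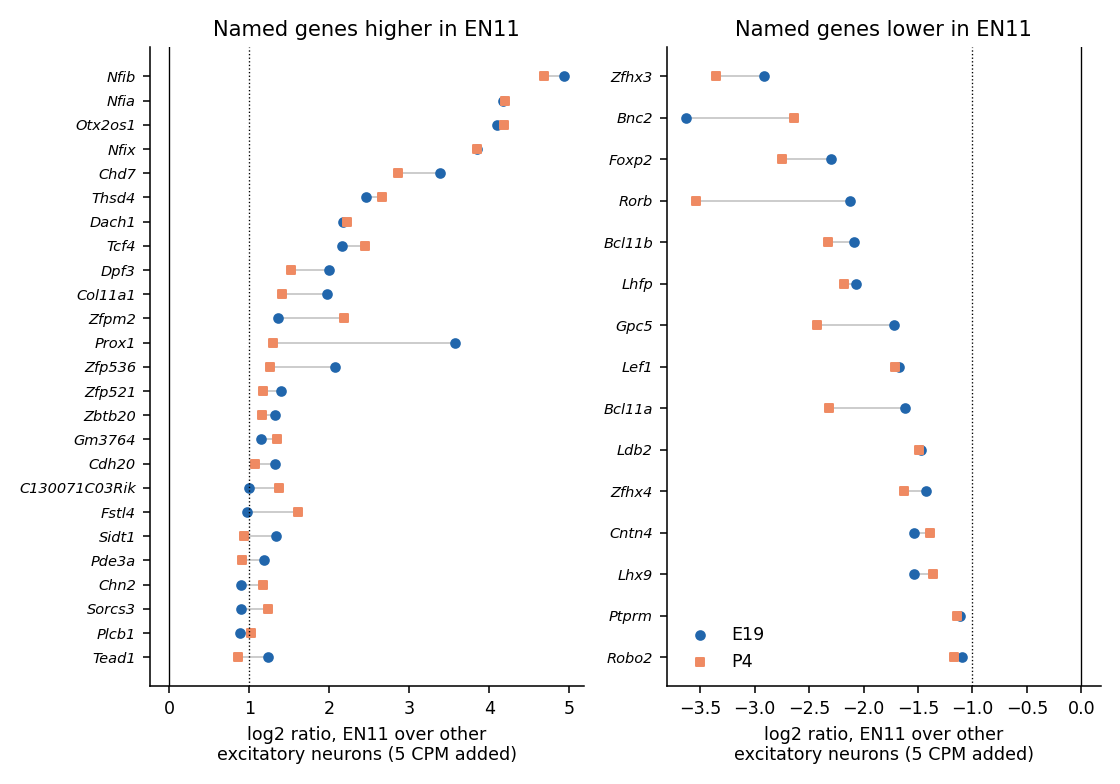
Log2 ratio of EN11 over the other excitatory neurons (5 CPM added) for the 25 genes named as higher and the 15 named as lower, at E19 (circles) and P4 (squares); dotted lines mark 2-fold. Nfib has the largest ratios, 4.94 and 4.68, and Prox1 differs most between both stages among the higher genes, at 3.57 and 1.29 (3.68 and 2.20 with EN7 left out).

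Among the 15 genes named as lower, several encode transcription factors, and for Zfhx3, Rorb and Bnc2 a few subtypes had far higher levels than the rest. Zfhx3 (chromosome 8, 107942644 to 108961630, plus strand), a large homeodomain and zinc finger factor, stood at 199, 83.8, 17.0 and 422 CPM in EN11 from E19 to P21 (intervals 167 to 236, 60.6 to 113, 4.62 to 43.4 and 360 to 491, with 4 UMIs at P8), or 256 without the deepest P21 nucleus, which alone held 127 Zfhx3 UMIs. The other excitatory neurons stood at 1532, 906, 443 and 537 CPM, above EN11 at all 4 stages. At E19 the class level came mainly from EN2 (3428 CPM), EN7, EN1, EN12 and EN3 (1026). EN11 ranked 11th of the 13 at both stages: EN4, EN13, EN5 and EN8 stood between 211 and 259 CPM at E19, and EN10 (120, interval 85.0 to 165) and EN6 (84.2) stood below EN11.

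Rorb, an orphan nuclear receptor gene of sensory thalamus and cortex, stood at 68.4 CPM (50.2 to 90.9) against 316 at E19 and 21.4 (10.7 to 38.4) against 302 at P4, and EN11 was last of the 13 subtypes at both stages. The level in the others came largely from a few subtypes, with EN6 at 6848 CPM and EN5 at 1919 at E19. Bnc2, a zinc finger gene, stood at 21.8 CPM (12.2 to 36.0) against 327 at E19 and 29.2 (16.4 to 48.2) against 208 at P4; EN6 had 2022 and 1371 CPM, and EN11 ranked 11th and 7th of the 13. Foxp2, a forkhead factor, stood at 103 and 52.6 CPM against 529 and 383, ranking 8th and 10th, and the zinc finger genes Bcl11b and Bcl11a at 48.0 and 23.4 against 221 and 137 and at 102 and 40.9 against 324 and 224. Lef1, a transcription factor of the Wnt pathway, Zfhx4, Ldb2, a LIM-domain binding protein, and Lhx9, a LIM homeodomain factor, had log2 ratios from -1.36 to -1.71. The adhesion and guidance genes Gpc5, Cntn4, Ptprm and Robo2, and Lhfp, completed the 15, all of which were at least 2-fold lower at both stages. Against EN10 alone, Zfhx3, Zfhx4 and Ldb2 were not lower in EN11 (log2 ratios 0.71 and 0.37, 1.66 and 0.65, 0.10 and 0.22 at E19 and P4). Gpc5 (1.42 and -0.50) and Ptprm (1.13 and -0.07) were not lower than in EN10 at E19. The rest of the 15 had ratios to EN10 below 0 at both stages. With the other subtypes weighted alike, 12 of the 15 were 2-fold lower at E19 and 14 at P4: Gpc5 (-0.83) and Zfhx4 (-0.67) no longer were at E19, nor Ptprm at E19 (-0.73) and P4 (-0.96). EN11 was last of the 13 for Rorb, Bcl11a and Lhx9.

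**Figure D3:**
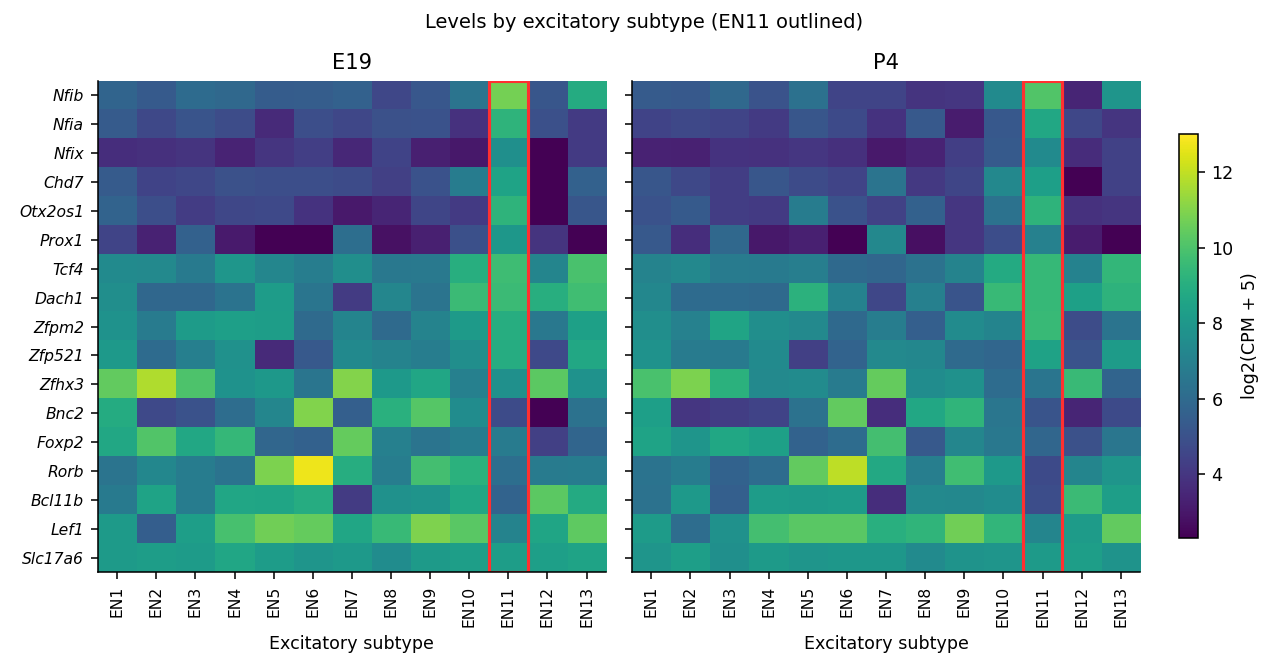
Levels, as log2(CPM + 5), of 17 named genes in each of the 13 excitatory subtypes at E19 (left) and P4 (right), with EN11 outlined. The rows of Nfib, Nfia, Nfix and Otx2os1 are brightest in EN11, while Dach1 is about as bright in EN10 and EN13 and Slc17a6 is even across subtypes.

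Lists of genes chosen by function were then counted, beside the 0.728% of all genes that were higher and the 0.588% that were lower at both stages. Of 31 neuronal differentiation factors tested, 7 were higher at both stages and 2 lower, with median log2 ratios of 0.070 and 0.32. The 7 were Nfia, Nfib, Nfix, Dach1, Satb1, St18 and Prdm8; Satb1, a chromatin organiser, stood at 172 CPM against 43.0 at E19 and 97.4 against 33.5 at P4. Of 11 diencephalic and thalamic factors, 5 were lower (Zfhx3, Rorb, Foxp2, Lef1 and Zfhx4), Prox1 was higher, and the medians were -1.27 and -1.63. Of 19 midbrain and collicular factors, Otx2 was higher and Bnc2, Lhx9 and Etv1 were lower; Etv1 had 0 UMIs in EN11 at E19 and 3 at P4. These lists were known to hold genes that earlier results on these data had pointed to.

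Guidance and adhesion genes differed in single members. Among 24 semaphorins, plexins and neuropilins, Sema3d and Sema5b, which encode guidance cues, were higher at both stages, Sema5b at 78.5 CPM against 22.9 at E19 and 72.1 against 19.1 at P4. Robo2, a receptor for Slit proteins, was the 1 lower gene of 13 Slit, Robo and netrin genes, at 604 CPM against 1300 and 460 against 1044. Of 20 cadherins Cdh20 was higher, of 17 contactins and L1 family genes Cntn4 was lower, and none of 14 ephrins and Eph receptors or 48 synapse organisers passed 2-fold at both stages in 1 direction.

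Few transmitter receptor and channel genes passed 2-fold. None of 16 ionotropic and 6 metabotropic glutamate receptor genes, 31 potassium channel genes and 29 sodium, calcium and HCN channel genes did at both stages; at the background shares, lists of this size would hold few or no such genes, so these counts do not show that levels were alike. The 6 metabotropic glutamate receptor genes tested had median log2 ratios of -0.50 and -0.41, against 0.05 for all genes. Among 18 GABA-A and glycine receptor genes, the glycine receptor subunit Glra1 was higher, at 53.8 CPM against 14.4 and 56.5 against 19.0, and Glra3 was lower, at 40.7 against 90.4 and 44.8 against 119. None of 19 immature-neuron and 16 maturation genes passed, with medians between -0.12 and 0.13.

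Next, EN11 was set beside single subtypes. Over 3040 genes at E19 and 2949 at P4, its log levels correlated most with those of EN1, at r = 0.943 and 0.933, and least with EN6, at 0.714 and 0.749. These are correlations across genes within 1 library, genes are not independent, and EN1 is also the subtype with most nuclei and so the least counting noise. Against EN1, 126 of 7656 genes were 2-fold higher and 72 lower in EN11 at E19, and 124 and 83 of 7542 at P4. Against EN10, with which EN11 shared the authors' cluster 7, 486 of 7891 were higher and 339 lower at E19. At P4, 401 of 7800 were higher and 363 lower, and r was 0.875 at E19 and 0.849 at P4. EN10 held 49 and 60 nuclei at these stages, against 514 and 419 in EN1, so counting noise weighs more on the EN10 counts. The counts therefore cannot rank EN1 and EN10 by likeness to EN11. Cluster 7 held 134 of the 163 EN11 nuclei (82.2%) beside 172 of EN10, 28 of EN1 and 23 of IN4, so cluster number and subtype did not coincide.

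EN11 itself was not uniform. Per the file headers, the authors labelled neurons with SingleR, which assigns the best-matching group of a reference dataset, and a reference named Vectorseq gave numbered labels. Label 2 was carried by 89 EN11 nuclei and label 31 by 37, and 37 of the 41 nuclei of the series with label 31 (90.2%) were EN11. From E19 to P21, label 31 made up 13.1%, 23.1%, 55.6% and 44.4% of EN11 (intervals 6.72 to 22.2, 12.5 to 36.8, 30.8 to 78.5 and 13.7 to 78.8), and label 2 made up 65.5%, 48.1%, 33.3% and 33.3%. The E19 and P8 intervals of label 31 did not overlap. Both labels carried NFI transcripts: Nfib stood at 2222 CPM in label 31 and 1801 in label 2 at E19, and at 1582 and 1003 at P4.

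Otx2os1 was higher in label 31 at every stage. It stood at 2222 CPM in label 31 and 410 in label 2 at E19, at 1392 and 406 at P4 and at 3067 and 758 at P8, and at P21 it had 73 UMIs in 4 nuclei of label 31 and 0 in 3 nuclei of label 2. Prox1 was lower in label 31 at E19, with 4 UMIs in 11 nuclei of label 31 (40.0 CPM) against 142 in 55 nuclei of label 2 (323 CPM). At P4 (65.9 against 99.6 CPM) and P8 (108 against 187 CPM) the intervals of Prox1 overlapped, with UMIs in at most 5 nuclei of a label. At P21 Prox1 had 0 UMIs in 4 nuclei of label 31, which allows up to 54.9 CPM. In the 3 nuclei of label 2 it had 13 UMIs (231 CPM, 123 to 395). Zfp804a and Col11a1 were higher in label 31 at all 4 stages, at 1281 against 412 and 650 against 212 CPM at E19. At P8 Col11a1 had 142 UMIs in 10 nuclei of label 31 (1277 CPM) and 15 in 6 nuclei of label 2 (175 CPM). Its P8 level in EN11 as a whole thus came mostly from label 31. Inpp4b, a lipid phosphatase gene, and Ptprg, a receptor phosphatase gene, were higher in label 2 at all 4 stages, at 435 against 80.1 and 1696 against 520 CPM at E19. These 4 genes were among 8 ranked for each label by their E19 and P4 values, and others of the 8 changed direction later. Of those ranked for label 2, Adarb2 and Cntn6 were higher in label 31 at P8 (log2 ratios 3.88 and 1.04). Klhl1 and Unc13c were so at P21 (0.79 and 0.20). Kcnab1, ranked for label 31, was higher in label 2 at P8 and P21 (-0.24 and -1.33). The labels rest on transcripts of the same nuclei, so these values describe the labels.

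In single nuclei, detection of the 2 genes overlapped. Of 162 EN11 nuclei, the deepest left out, 48 had an Otx2os1 UMI and no Prox1 UMI, 35 had Prox1 and no Otx2os1, 21 had both and 58 neither. An Otx2os1 UMI was found in 37.5% of the 56 nuclei with Prox1 and in 45.3% of the 106 without, and at E19 in 33.3% of 33 and 43.1% of 51. Of 51 nuclei with at least 3 Otx2os1 UMIs, 36 had no Prox1, and 27 carried label 31. Of 40 nuclei with at least 3 Prox1 UMIs, 28 had no Otx2os1, and 26 carried label 2. Over all 162 nuclei, 106 had no Prox1, 69 had an Otx2os1 UMI, 37 carried label 31 and 89 label 2. Among nuclei with at least 3 Prox1 UMIs, label 2 was carried by 18 of 22 at E19 and 4 of 11 at P4. These shares were not tested. At E19, where all nuclei share a library, 22 nuclei had Otx2os1 only, 22 Prox1 only, 11 both and 29 neither.

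**Figure D4:**
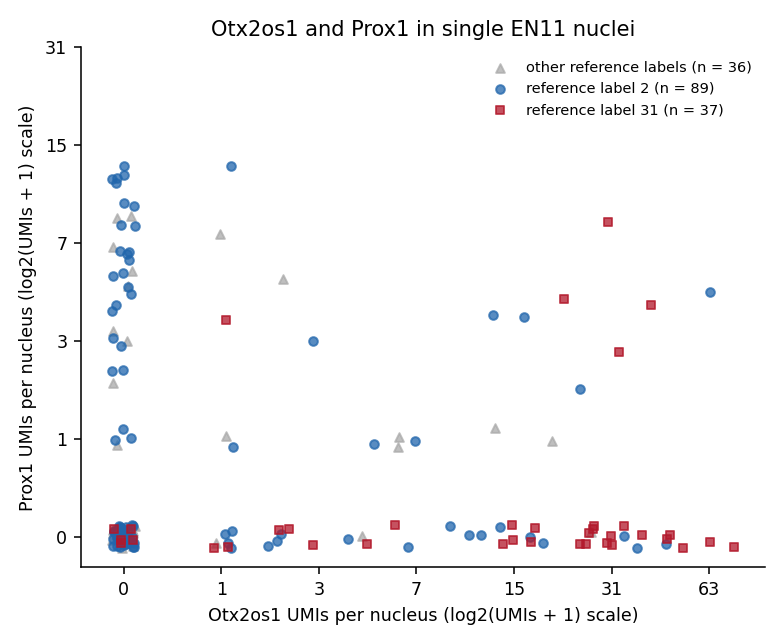
UMIs of Otx2os1 (x axis) and Prox1 (y axis) in each of 162 EN11 nuclei of all stages, on a log2(UMIs + 1) scale with a small random offset so that points do not hide each other; symbols show the reference label (37 nuclei of label 31, 89 of label 2, 36 of others). The 58 nuclei with neither gene lie at the origin and the 21 with both lie off the axes.

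A smaller set of nuclei carried the label EN11 with few NFI transcripts. Of the 133 nuclei of cluster 7, without the deepest, 112 (84.2%) had at least 5 NFI UMIs, with a median of 18. Of the 25 nuclei in cluster 0, 15 (60.0%) had, with a median of 10, although these nuclei were deeper (median 10925 against 8236 UMIs). In all, 12 of the 162 had no NFI UMI, 8 of them in cluster 7 and 4 in cluster 0. Among the 36 nuclei with reference labels other than 31 and 2, 23 (63.9%) had 5 or more.

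At P8 and P21, which did not enter the choice of genes, EN11 rested on 18 and 9 nuclei. The label was given to these nuclei too, so if it rests on these transcripts their values are not independent of it. At P8 all 25 of the higher genes were above the other excitatory neurons, 20 of them 2-fold. Of the 15 lower genes, 14 were below, 13 of them 2-fold, and Zfhx4 was the exception, at 102 against 88.5 CPM. At P21, 23 of the 25 were above and 17 of them 2-fold, or 22 and 16 without the deepest nucleus. Of the 15 lower genes, 4 were 2-fold lower at P21 with the deepest nucleus and 12 without it. Pde3a was 2-fold lower at P21 in both cases, at 36.0 CPM against 139 with the deepest nucleus. Rorb at P21 had 83 UMIs in EN11, 3 of them outside the deepest nucleus.

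The last comparison asked how EN11 at P4 differed from EN11 at E19, both in 1 library. Of 7864 genes that reached 20 CPM in one library or the other, 167 (2.12%) were 2-fold higher at P4 and 247 (3.14%) 2-fold lower. With at least 100 CPM, 28 and 30 of 2266 were, against 12 and 22 of 2079 in the other excitatory neurons, whose UMI totals were many times larger. In these libraries the female-specific transcript Xist had 1 UMI in EN11 at E19 and 239 at P4, and the sex of the pooled animals is unknown here, so sex and age cannot be told apart.

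Among the 10 genes with the largest ratio of P4 over E19 was Col23a1, a transmembrane collagen, whose level in the other excitatory neurons was the same at both stages. It stood at 68.4, 193, 339 and 72.0 CPM in EN11 from E19 to P21 (intervals 50.2 to 90.9, 157 to 235, 269 to 422 and 47.8 to 104), or 62.2 without the deepest nucleus, against 17.3, 17.3, 23.7 and 5.98 in the others. Vwc2, a secreted bone morphogenetic protein antagonist (81.5 to 228 CPM), Slc6a7, a proline transporter (49.5 to 136), and Ghr, the growth hormone receptor (90.2 to 203), were higher at P4 as well, with log2 ratios of 1.43, 1.38 and 1.13 in EN11 and 0.33, 0.51 and 0.78 in the others. AC149090.1 (log2 ratio 2.80), Lman2l, Ctnna3, A230006K03Rik, Etl4 and Mir670hg made up the rest; of the 10, 9 were also higher at P4 in the other excitatory neurons, 3 of them 2-fold.

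The 10 genes with the lowest ratio of P4 over E19 were led by Rnf220, a ubiquitin ligase gene, which stood at 401 CPM in EN11 at E19 (355 to 452) and 33.1 at P4 (19.3 to 53.0). Its 276 UMIs at E19 came from 26 of 84 nuclei, 77 of them from 1 nucleus. Efna5, an ephrin guidance ligand, went from 625 to 267 CPM, while in the others it went from 754 to 648. Zfp536 (448 to 179 CPM), Gfra1 (122 to 46.8) and Bcl11a (102 to 40.9) were lower at P4 too. Ptma, a small chromatin protein gene, Fabp7, a fatty acid binding protein gene of radial glia, Sox4, a factor of young neurons, and the histone gene H3f3a had log2 ratios of -1.36, -1.29, -1.26 and -1.20 in EN11 and -1.03, -1.19, -0.99 and -1.03 in the others, a like size in both. Of 20 immature-neuron genes, 4 (Sox4, Tubb5, Igfbpl1 and Cd24a) were 2-fold lower at P4 in EN11, with a list median of -0.64 against -0.83 in the others.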

How the data were processed

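Single-nucleus RNA was measured in 4 libraries, 1 per stage. Per the labels, nuclei were captured with 10x Genomics 3′ v3 chemistry and reads were processed by the authors with Cell Ranger 3.0.2, per the submitters' processing notes, against an mm10 pre-mRNA reference, so intronic reads count and long genes weigh more. The deposited matrix holds UMI counts, not normalised, for 31053 genes. The deposited table of nuclei gives stage, class, subtype, cluster, reference labels and the percent of mitochondrial and ribosomal protein UMIs; 4 further columns of it were not used. How the authors filtered nuclei, treated doublets and named subtypes is not stated in the sources used here; no nucleus was removed and no doublet caller was run. One label abbreviates the embryonic day differently; the title, E19, was used.

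UMIs were summed per library and subtype and scaled to 1000000 (CPM). Log2 ratios had 5 CPM added, so the change of low genes is understated. Intervals were exact Poisson for levels, Clopper-Pearson for shares and conditional binomial for folds, at the 95% level. Summing was checked on simulated counts. Genes were named by rank: 25 higher and 15 lower at both E19 and P4 and 10 of each for P4 against E19, with at least 100 CPM, and list members 2-fold different at both stages. Xist, Tsix, Y-linked, haemoglobin, mitochondrial and ribosomal protein genes (not Mrpl and Mrps) were not ranked. One ranked gene is not reported here. The members and the 31 lists were chosen with earlier results of these data known. Genes compared between reference labels, the deepest nucleus, and Pax5, Calcr, Lmx1a, Lhx4, Crh, Neurod2, Reln and Epha3 were chosen after their values were seen. Positions came from GENCODE M21 (GRCm38), which held 31011 of the 31053 identifiers; coordinates are 1-based. Of 61 genes looked up, 38 overlap an annotated gene on the opposite strand and 30 one on the same strand, so UMIs could be shared. Python 3.11.15, numpy 2.4.6, scipy 1.17.1 and pandas 2.3.3 were used.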

Additional observations from a re-analysis of the deposited data

Results flagged for a closer look

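Rnf220 differed in direction between EN11 and the other excitatory neurons from E19 to P4. In EN11 its log2 ratio was -3.41 (401 to 33.1 CPM), while in the other excitatory neurons it was 1.56 (275 to 817 CPM). With the subtype EN7 left out of the others, their ratio was -0.41 (102 to 75.0 CPM). The difference was not tested, since each stage has 1 library. In EN11 the E19 level rested on 26 nuclei, 10 of which had 3 or more UMIs, and at P4 on 17 UMIs in 14 nuclei. At P8 EN11 had 6 UMIs, and at P21 all 129 UMIs came from the deepest nucleus.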

How the results depend on the processing

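The counts of genes depended on how low genes were treated, while the named genes did not change direction: all 25 higher and all 15 lower genes kept their direction at E19 and P4 under each alternative run. With 20 CPM added in place of 5, 67 genes were higher and 43 lower at E19, 54 and 64 at P4, and 33 and 51 for P4 against E19. With 1 CPM added, the last pair was 282 and 372. With a minimum of 100 CPM, the counts were 34 and 32 at E19, 37 and 50 at P4, and 28 and 30 for P4 against E19. With no minimum they were 215 and 181, 208 and 295, and 429 and 565. With nuclei thinned to 2300 UMIs they were 382 and 336, 532 and 618, and 788 and 1018, and Slc17a6 stood at 159 CPM at P4 and 290 at P21. With EN11 nuclei of cluster 7 alone, 134 genes were lower at E19 and 293 were higher at P4 than at E19. With EN11 nuclei of reference label 2 alone, 136 were lower at E19, 205 higher and 307 lower at P4, and 344 higher and 582 lower for P4 against E19. Of all neurons, EN11 made up 3.77%, 2.67% and 0.921% at E19, P4 and P8, and of all nuclei 3.25%, 2.18%, 0.719% and 0.400%. Slc17a6 at P21 was 172 CPM with each nucleus weighted alike and 180 without mixed nuclei or without the deepest nucleus. The cluster, label and deepest-nucleus alternatives were chosen after seeing the data. Of 966 values for single genes and other lesser results, 137 moved and 0 reversed; 43 of the 137 moved with the other subtypes weighted alike, which lowered the 2-fold calls from 22 to 17 among higher genes at P4 (Zfp536 0.45, Gm3764 0.45, C130071C03Rik 0.96, Zbtb20 0.96, Plcb1 0.84 and Cdh20 0.89 no longer passed) and from 15 to 12 among lower genes at E19.

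No paired analysis was possible because each stage has 1 library, so the stages share fewer than 2 replicate numbers. EN11 and the other excitatory neurons lie in the same 4 libraries, but the label was drawn on the same nuclei and the libraries differ in age, so that contrast was given no test. Depth limits P8 and P21 most, where 18 and 9 nuclei stand behind each value. The P4 against E19 counts over all genes rest on 513199 and 687486 UMIs, so a gene at 20 CPM stands on 13.7 UMIs at E19 and 10.3 at P4.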

Other observations

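At E19 a few EN11 nuclei carried regulatory and receptor genes that were at or near 0 in EN11 at P4. Pax5, a paired-box factor of the early midbrain and hindbrain border, had 57 UMIs in 10 of 84 nuclei at E19 (82.9 CPM) and 0 in 52 nuclei at P4, which allows up to 5.85 CPM; in the other excitatory neurons it stood at 15.1 and 0.348 CPM. Of the 10 nuclei, 8 had 3 or more Pax5 UMIs, and 6 of these 8 also had 3 or more of Rnf220.

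The calcitonin receptor gene Calcr had 45 UMIs in 3 E19 nuclei, 28 of them in 1 nucleus, and 2 UMIs at P4. Lmx1a, a LIM homeodomain factor, had 23 UMIs in 3 nuclei, and the LIM homeodomain gene Lhx4 had 15 in 3, 12 of them in the nucleus with most Calcr. Crh, the corticotropin-releasing hormone gene, had 15 UMIs in 2 nuclei. Each of these levels rests on so few nuclei that it describes those nuclei and not EN11.

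Neurod2, a basic helix-loop-helix gene, stood at 13.1 CPM in EN11 against 2.12 in the other excitatory neurons at E19 and at 33.1 against 2.16 at P4. The E19 level lay under the 20 CPM minimum used for the counts of genes and rests on fewer than 13.7 UMIs. Reln, which encodes a secreted protein that guides neuronal positioning, was near the class at E19, at 284 against 258 CPM, at P4 stood at 503 against 180, and at P8 stood at 288 against 240. Epha3, an Eph receptor gene, was level at E19, at 122 against 117 CPM, lower in EN11 at P4, at 52.6 against 172, and higher at P8, at 191 against 76.7.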
